A study of Mus musculus with 8 samples.

Results

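The 9 transcripts described here, Mbp, Mog, Mag, Mobp, Cnp, Cldn11, Mal, Ermn and Ugt8a, encode structural proteins and enzymes of central nervous system myelin. They were taken by symbol from a count table of 51810 genes. All 9 were found, and all 9 passed the filter on low counts that left 16237 genes for testing. The libraries came from microglia of wild-type mice, and the question behind the series is whether aging of white matter adds to microglial diversity. Brains were split into white matter, the corpus callosum, and grey matter. Cells were enriched with magnetic beads against CD11b, an integrin subunit on microglia and other myeloid cells, after a Percoll gradient meant to remove myelin, and libraries from polyadenylated RNA were read on an Ion Proton sequencer. The 4 groups of 2 libraries were, at 21 months of age, white matter and grey matter, and, at 4 months of age, white matter and grey matter. All mice were wild type, and no treatment, strain or sex is stated. The region label of the grey matter libraries reads corpus callosum as well, so the split by region rests on titles and tissue labels. No label says whether the pair of libraries in a group stems from different mice, so p-values reflect only how far these samples spread, and that spread may be technical.

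Myelin is the multilayered membrane that oligodendrocytes wrap around axons, and white matter is the tissue richest in it. Its main structural proteins and the enzymes of its galactolipids are made by mature oligodendrocytes, under transcription factors that include Sox10, Olig2 and Myrf. Microglia engulf myelin debris, and that load is known to grow with age, but these 9 transcripts are textbook markers of oligodendrocytes and not of microglia. Mbp mRNA differs from most of the others in that it is carried out of the cell body and translated at the myelin sheath.

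The library totals ran from 3273258 to 6315782 counts. Levels are counts per 1000000 (CPM) of the filtered library total scaled by TMM, a normalization between libraries. 1 library, the first of 4-month white matter, differed from the rest. Its TMM factor was 0.619, against 0.911 to 1.16 in the other 7 libraries, and its 2 most abundant transcripts held 38.8% of its counts, against 6.78% to 20.7%. The summed level of 16 microglia markers was 4604 CPM in it, against 17277 to 27571 CPM in the other 7, and each of the 16 was lowest there. The labelled cell type's markers were detected in each library. Results that rest on this library are also given without it.

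The 9 transcripts together took 91385 counts, 2.04% of all counts, in the first 4-month white matter library. In the other 7 they took 653 to 2828 counts, 0.0131% to 0.0561% of a library. The summed level was 237 and 220.5 CPM in white matter, against 168 and 221 CPM in grey matter, at 21 months, and 33210 and 500 CPM in white matter, against 493 and 119 CPM in grey matter, at 4 months. Outside the first 4-month white matter library, the highest sums were those of the second 4-month white matter library and the first 4-month grey matter library, and the lowest was that of the second 4-month grey matter library. In such bulk samples, fewer cells of a type and less RNA per cell cannot be told apart.

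**Figure D1:**
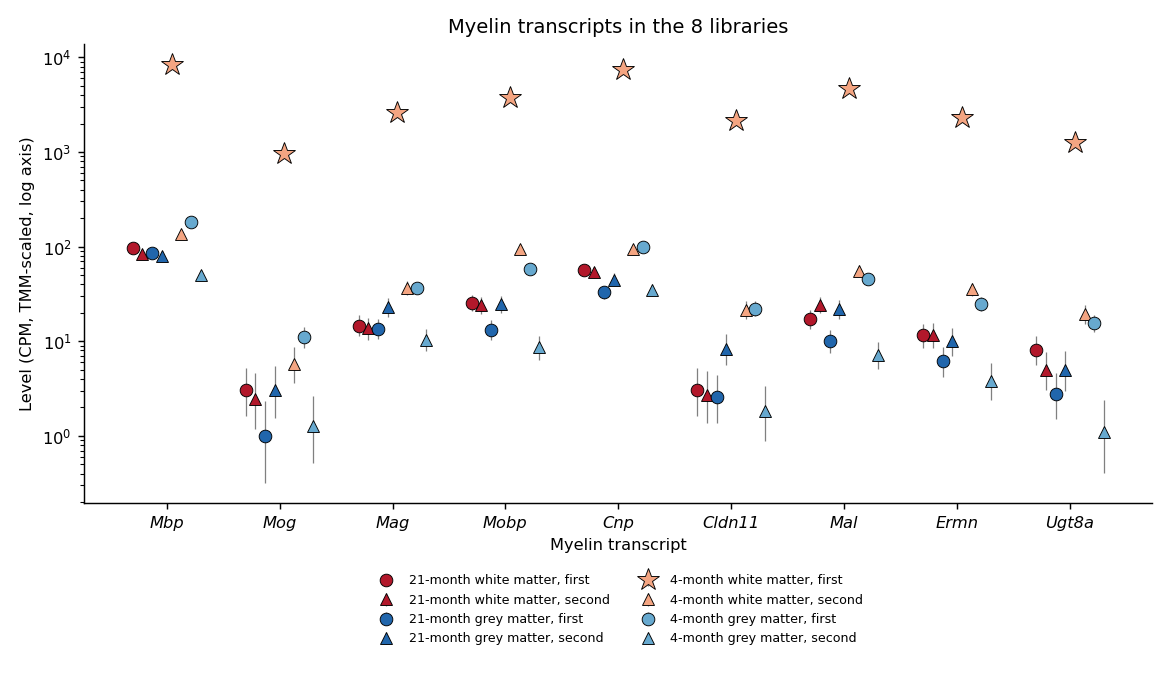
The level of each of the 9 myelin transcripts in CPM (log axis) in the 8 libraries, with 1 point per library; vertical lines are exact Poisson 95% intervals and cover counting error only. The first 4-month white matter library lies 39.7 (Mobp) to 96.7 (Cldn11) times above the highest of the other 7 with TMM, and 21.8 (Mobp) to 59.4 (Mog) times with library size alone.

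Mbp, myelin basic protein, holds the cytoplasmic faces of compact myelin together. Its level was 97 and 83.2 CPM in white matter, against 85.8 and 80.4 CPM in grey matter, at 21 months, and 8228 and 136 CPM in white matter, against 183 and 50.3 CPM in grey matter, at 4 months. The 4 libraries from 21-month mice lay close together, while both 4-month groups were spread widely. Mobp, a second basic protein of compact myelin, stood at 25.3 and 24.1 CPM in white matter, against 13.3 and 24.6 CPM in grey matter, at 21 months, and 3757 and 94.6 CPM in white matter, against 57.4 and 8.59 CPM in grey matter, at 4 months. Mal, a raft-associated proteolipid that sorts proteins to the myelin membrane, stood at 17 and 24.3 CPM in white matter, against 10.1 and 21.8 CPM in grey matter, at 21 months, and 4613 and 55.9 CPM in white matter, against 45.2 and 7.13 CPM in grey matter, at 4 months. For Mobp and Mal the 21-month white and grey libraries overlapped, and both 4-month white matter libraries lay above both 4-month grey matter libraries.

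Another 3 members act at the surfaces and junctions of myelin. Mog, an immunoglobulin-family glycoprotein of the outermost layer, had 3.07 and 2.48 CPM in white matter, against 0.99 and 3.07 CPM in grey matter, at 21 months, and 964 and 5.77 CPM in white matter, against 11 and 1.28 CPM in grey matter, at 4 months. Outside the first 4-month white matter library its counts were few, so its ratios there are the least precise of the 9 with those of Cldn11 and Ugt8a. Mag, the adhesion glycoprotein of the layer facing the axon, had 14.7 and 13.7 CPM in white matter, against 13.5 and 22.9 CPM in grey matter, at 21 months, and 2590.4 and 36.9 CPM in white matter, against 36.3 and 10.4 CPM in grey matter, at 4 months. Cldn11, the claudin of the tight junctions between myelin layers, had 3.07 and 2.73 CPM in white matter, against 2.57 and 8.37 CPM in grey matter, at 21 months, and 2142 and 21.3 CPM in white matter, against 22.2 and 1.83 CPM in grey matter, at 4 months. The 21-month groups overlapped for all 3 genes. The second 4-month white matter library lay between the 2 grey matter libraries of that age for Mog and Cldn11, and just above both for Mag.

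Cnp, a cyclic nucleotide phosphodiesterase that keeps cytoplasmic channels through myelin open, had 57.2 and 53.4 CPM in white matter, against 32.9 and 44.7 CPM in grey matter, at 21 months, and 7362 and 94.6 CPM in white matter, against 98 and 34.9 CPM in grey matter, at 4 months. Exons of Cnp overlap exons of Dnajc7, a chaperone cofactor gene on the opposite strand, in GENCODE release M21, and whether counting used strand is not given in the sources used here. Reads from the overlap therefore cannot be assigned. Dnajc7 itself varied little, with 101 CPM in the first 4-month white matter library against 89.6 to 112 CPM in the other 7. Ermn, ermin, a cytoskeletal protein of mature oligodendrocytes, had 11.6 and 11.7 CPM in white matter, against 6.14 and 10 CPM in grey matter, at 21 months, and 2300 and 35.4 CPM in white matter, against 24.8 and 3.84 CPM in grey matter, at 4 months. Ugt8a, the enzyme that makes galactosylceramide, the main glycolipid of myelin, had 8.04 and 4.97 CPM in white matter, against 2.77 and 5.02 CPM in grey matter, at 21 months, and 1255 and 19.3 CPM in white matter, against 15.5 and 1.1 CPM in grey matter, at 4 months. White matter lay above grey matter without overlap at both ages for Ermn, at 21 months but not at 4 months for Cnp, and at 4 months but not at 21 months for Ugt8a. Ermn also overlaps a gene on the opposite strand, Galnt5, which had 9 counts over all libraries. Exons of Mobp overlap those of a predicted gene on the same strand in that annotation, so its counts may hold reads of both.

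Among the 7 libraries other than the first 4-month white matter library, the ratio of the highest to the lowest level was 2.98 for Cnp, 3.54 for Mag and 3.64 for Mbp. It was 7.85 for Mal, 9.21 for Ermn, 11 for Mobp, 11.1 for Mog, 12.1 for Cldn11 and 17.6 for Ugt8a. The lowest level of 7 of the 9, all but Mog and Cnp, was in the second 4-month grey matter library. Mog and Cnp were lowest in the first 21-month grey matter library. The highest was in the second 4-month white matter library for Mag, Mobp, Mal, Ermn and Ugt8a and in the first 4-month grey matter library for Mbp, Mog, Cnp and Cldn11.

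The first 4-month white matter library lay above all of the other 7 for 9 of the 9 transcripts, as it did for 31.7% of the 16237 genes tested. It was at least 10 times the highest of the other 7 for 9 of the 9, as for 2.37% of the genes tested. The fold over the highest of the other 7 was 39.7 for Mobp, 45 for Mbp, 65 for both Ermn and Ugt8a, 70.2 for Mag and 75.1 for Cnp. It reached 82.5 for Mal, 87.7 for Mog and 96.7 for Cldn11. These folds depend on the TMM factor: scaled by library size alone they ran from 21.8 for Mobp and 30.5 for Mbp to 55 for Cldn11 and 59.4 for Mog. These are single-library values, so they have no replicate check.

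Promoter windows, 250 bases before to 50 after each annotated start, were read from RefSeq on GRCm38.p6. The deposited tables name no genome build, so these coordinates belong to RefSeq and not to the counts. Of the 9 transcripts, 8 matched by symbol, with 10 windows, 3 of them of Mag. Both strands were searched for ACAAAG, a core letter string of SOX factor sites, CTGGNAC, used here as the Myrf string, and CANNTG, the E-box bound by factors such as Olig2. N stands for any base, so a match to the Myrf string need not be a sequence that Myrf binds. The SOX string was in windows of 3 members (Mobp, Mag and Cnp), the Myrf string in windows of 3 (Mog, Mag and Cnp) and the E-box in windows of 3. By window, 4 of the 10 held the SOX string, 4 the Myrf string and 5 the E-box, and 2 of the 3 Mag windows overlap each other. Of all 32851 windows of the same length, 18.7% held the SOX string, 19.3% the Myrf string and 72.3% the E-box. The 3 windows printed were chosen after the search because they hold the SOX string. Capitals mark the SOX and Myrf strings on either strand, so that CTTTGT is ACAAAG read on the other strand; no SOX match overlapped a Myrf match.
Mobp: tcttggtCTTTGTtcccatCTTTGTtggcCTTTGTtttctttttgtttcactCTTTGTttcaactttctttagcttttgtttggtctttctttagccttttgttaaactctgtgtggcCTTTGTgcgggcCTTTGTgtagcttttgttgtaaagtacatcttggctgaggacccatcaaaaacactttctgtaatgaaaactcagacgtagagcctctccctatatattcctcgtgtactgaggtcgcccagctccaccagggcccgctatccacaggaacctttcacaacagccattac
Mag: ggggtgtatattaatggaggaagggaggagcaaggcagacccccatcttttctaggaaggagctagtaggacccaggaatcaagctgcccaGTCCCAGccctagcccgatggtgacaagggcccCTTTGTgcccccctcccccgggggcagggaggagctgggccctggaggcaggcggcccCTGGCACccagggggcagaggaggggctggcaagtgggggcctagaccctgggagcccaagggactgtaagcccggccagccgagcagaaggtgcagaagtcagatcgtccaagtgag
Cnp: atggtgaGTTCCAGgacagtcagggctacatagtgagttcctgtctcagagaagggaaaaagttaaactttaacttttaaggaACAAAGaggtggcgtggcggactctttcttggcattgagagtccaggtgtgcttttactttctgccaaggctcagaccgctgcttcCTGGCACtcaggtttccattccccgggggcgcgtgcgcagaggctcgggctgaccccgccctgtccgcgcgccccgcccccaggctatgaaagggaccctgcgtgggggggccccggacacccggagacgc
The Mobp window is chr9:120149492-120149791 on the plus strand, the Mag window chr7:30914814-30915113 on the minus strand, and the Cnp window chr11:100574689-100574988 on the plus strand. The Mobp window held 6 SOX matches, and no other window among the 32851 held 6 or more. The Mag and Cnp windows each held 1 SOX match and 2 Myrf matches. The matches describe letters only. The factors' own transcripts were measured too. Sox10 stood at 615 CPM in the first 4-month white matter library against 1.78 to 6.77 CPM in the other 7, and Myrf at 1657 CPM against 6.03 to 35.1 CPM.

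The ratios between the 9 transcripts were not the same in all libraries. Mbp made up 40.9%, 95% interval 37.9% to 44%, and 37.7%, 34.5% to 41%, of the 9-transcript count in the 21-month white matter libraries. In 21-month grey matter it made up 51.1%, 47.6% to 54.5%, and 36.4%, 33% to 39.9%. In 4-month white matter it made up 24.8%, 24.5% to 25.1%, in the first library and 27.2%, 25.3% to 29.3%, in the second, and in 4-month grey matter 37.1%, 35.3% to 38.9%, and 42.1%, 38.3% to 46%. The Mbp share was thus lowest in the 2 white matter libraries of 4 months, whose intervals lay apart from each other and below those of the other 6 libraries. These exact binomial intervals cover counting error only, since reads are not independent molecules, and a share compares a gene with itself across libraries, because the counts are not per length.

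**Figure D2:**
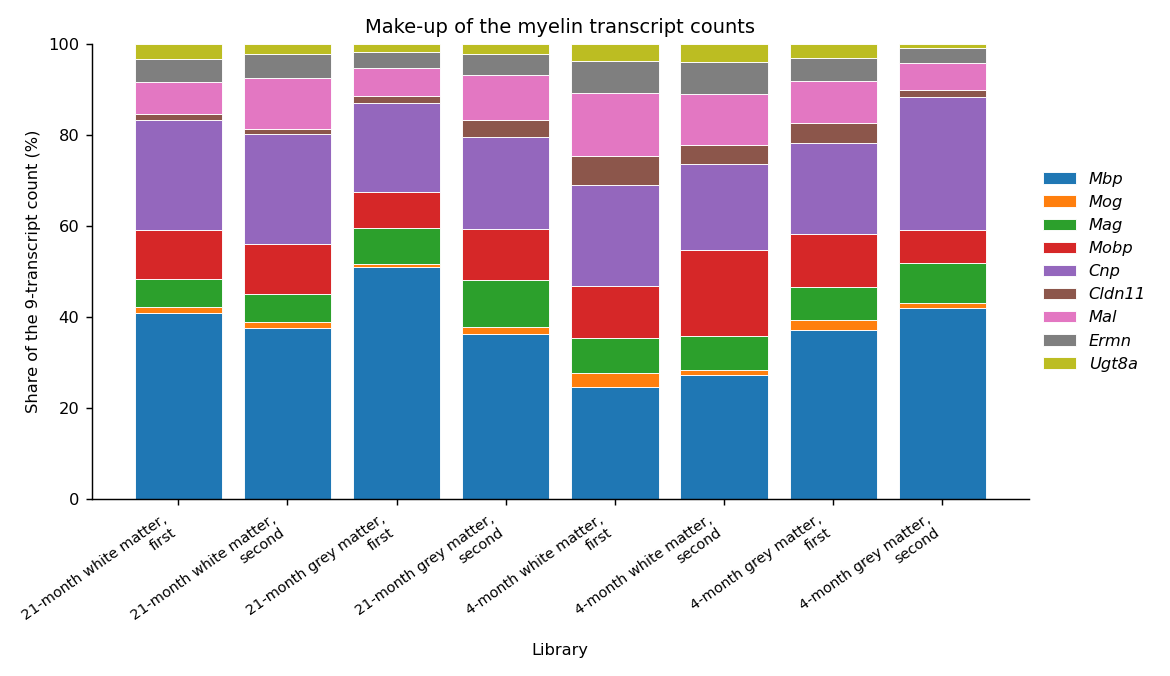
The share (%) of each transcript in the summed count of the 9, with 1 stacked bar per library. Mbp makes up 24.8% in the first 4-month white matter library and 27.2% to 51.1% in the other 7.

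Cldn11, Mal and Mog took a larger share in the first 4-month white matter library than in any other. Cldn11 made up 6.45% there against 1.24% to 4.49% in the other 7, Mal 13.9% against 5.97% to 11.2%, and Mog 2.9% against 0.59% to 2.23%. The exact intervals in that library were 6.29% to 6.61% for Cldn11, 13.7% to 14.1% for Mal and 2.79% to 3.01% for Mog. The intervals of the other 7 lay below these for Cldn11, reaching at most 5.37%, in the second 21-month grey matter library, and for Mal, reaching at most 13.3%, in the second 21-month white matter library. For Mog the interval overlapped that of the first 4-month grey matter library, 1.72% to 2.84%. The shares of Mag, Mobp, Cnp, Ermn and Ugt8a in the first 4-month white matter library fell inside the range of the other 7.

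Set against Mbp, every other member was relatively more abundant in the first 4-month white matter library than in the other 7 pooled. The log2 ratio to Mbp was higher by 1.59 for Cldn11, 1.56 for Mog and 1.19 for Mal. It was higher by 1.00 for Ermn, 0.98 for Ugt8a, 0.64 for Cnp, 0.63 for Mag and 0.45 for Mobp. All these ratios use Mbp, whose share was lowest in that library, so they are not separate observations. For Mobp the log2 ratio was higher still in the second 4-month white matter library, −0.53 against −1.13 in the first.

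Mobp and the sum of Mbp and Cnp also differed in share. Mobp made up 18.9%, 17.2% to 20.7%, in the second 4-month white matter library, against 11.3% in the first and 7.2% to 11.6% in the other 6. Mbp and Cnp together made up 65.1% and 61.9% in white matter, against 70.6% and 56.6% in grey matter, at 21 months, and 46.9% and 46.2% in white matter, against 57% and 71.4% in grey matter, at 4 months. The 4-month white matter libraries had the 2 lowest values, and the highest values were in the 2 libraries with the lowest summed levels.

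The level of each transcript was also set as a percentage of its level in the first 4-month white matter library, which would be the same for all 9 in a library with the same proportions. The percentages differed within each of the other 7 libraries. In 21-month white matter they ran over an 8.21-fold range in the first library, 0.144% for Cldn11 to 1.18% for Mbp, and over a 7.93-fold range in the second, 0.128% for Cldn11 to 1.01% for Mbp. In 21-month grey matter they ran over a 10.1-fold range in the first library, 0.103% for Mog to 1.04% for Mbp, and over a 3.07-fold range in the second, 0.319% for Mog to 0.977% for Mbp. The second 4-month white matter library had a 4.21-fold range, 0.599% for Mog to 2.52% for Mobp. In 4-month grey matter the range was 2.27-fold in the first library, 0.979% for Mal to 2.22% for Mbp, and 7.16-fold in the second, 0.0854% for Cldn11 to 0.611% for Mbp. Mbp had the highest percentage in 6 of these 7 libraries. The range was narrowest in the first 4-month grey matter library, which has the largest member count of the 7, and widest in the first of 21-month grey matter.

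**Figure D3:**
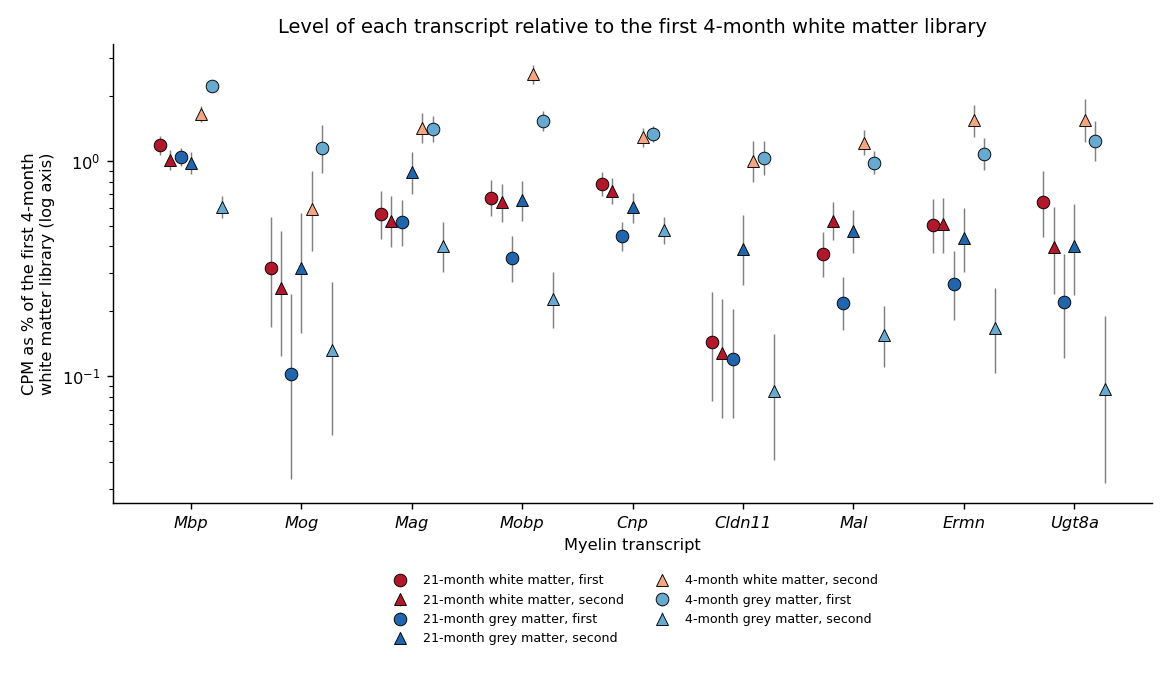
The level of each transcript in the other 7 libraries as a percentage of its level in the first 4-month white matter library (log axis), 1 point per library, with intervals from counting error only. Within a library the highest percentage is 2.27 to 10.1 times the lowest, and Mbp is the highest in 6 of 7.

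Other genes of the same cells were examined as lists. Of 16 other membrane and junction genes of myelin, 15 stood at least 10 times above the highest of the other 7 libraries in the first 4-month white matter library, among them Tspan2, a tetraspanin with 1822 CPM against 10.6 to 42.4 CPM, and Tmem88b, a membrane protein with 2358 CPM against 6.22 to 42.9 CPM; Cd9, another tetraspanin, was the exception. Of 14 other oligodendrocyte genes 12 did so, among them Tubb4a, a tubulin with 5465 CPM against 17.6 to 51.3 CPM, and Cryab, a small heat shock protein with 5650.3 CPM against 9.69 to 60 CPM, while Trf, transferrin, had 3687 CPM against 319 to 618 CPM. All 9 oligodendrocyte transcription factors did so, with Olig1 at 940.2 CPM against 0.549 to 11.3 CPM. Of 7 genes of myelin lipid synthesis 3 did so, among them Fa2h, which hydroxylates the fatty acids of galactolipids, with 2020 CPM against 0.914 to 25.6 CPM. Cers2, a ceramide synthase, had 979 CPM against 102 to 186 CPM, and Gltp, a glycolipid transfer protein, 640 CPM against 56.9 to 119.9 CPM. Both of these have wider expression than myelin.

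The summed level of the 9 in the other 7 libraries was 0.36% to 1.51% of that in the first 4-month white matter library. For the other membrane and junction genes it was 0.489% to 1.51%, and for the transcription factors 0.402% to 1.62%. It was 4.41% to 8.1% for the lipid synthesis genes and 2.36% to 3.93% for the other oligodendrocyte genes, the lists that hold Cers2, Gltp and Trf. With library size alone these ranges were higher: 0.641% to 2.75% for the 9, 0.883% to 2.76% for the other membrane and junction genes, 0.727% to 2.95% for the transcription factors, 7.87% to 12.9% for the lipid synthesis genes and 4.27% to 7.34% for the other oligodendrocyte genes. In that scaling 14 of the 16 membrane and junction genes and 11 of the 14 other oligodendrocyte genes stood at least 10 times above the other 7, and the counts for the transcription factors and the lipid synthesis genes were again 9 and 3.

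Markers of earlier stages of the lineage were mixed in that library. The 11 precursor markers summed to 12.4 CPM, against 38 to 107.5 CPM in the other 7, with 4 of the 11 lowest there and 2 highest. Cspg4, the NG2 proteoglycan, which pericytes also carry, had 1.09 CPM, 3 counts, against 7.5 to 85.2 CPM. Gpr17, a receptor of cells about to become oligodendrocytes, was highest there, with 4.36 CPM, 12 counts, against at most 0.594 CPM, and so was Lhfpl3, with 1.45 CPM, 4 counts, against at most 0.872 CPM. The 6 markers of newly formed oligodendrocytes summed to 558 CPM, inside the 529 to 871 CPM of the other 7. Of these 6, Enpp6 alone stood more than 10 times above the other 7, with 162 CPM against 0.183 to 2.62 CPM, and Fyn, a kinase that other cells also express, was highest there with 33.8 CPM against 6.7 to 15.5 CPM, while Itpr2, Tns3 and Tcf7l2, which other cells also express, were lowest there. The 5 Schwann cell genes summed to 653 CPM against 446 to 860.5 CPM. Among these genes of peripheral myelin, Pmp2 had 0 counts in all 8 libraries, Prx had 0 counts in that library and at most 0.792 CPM in the other 7, and Pmp22, which other cells also express, had 500.4 CPM against 316 to 566 CPM.

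Markers of other cell types were measured beside these. In the first 4-month white matter library, 11 astrocyte markers summed to 102 CPM against 136 to 304 CPM in the other 7, and 9 endothelial markers summed to 13.4 CPM against 41 to 199 CPM, with 5 of the 9 at 0. The 7 pericyte and smooth muscle markers summed to 7.63 CPM against 129.6 to 1239 CPM, each lowest there. The 15 neuron markers summed to 129 CPM against 21.8 to 89.3 CPM; 6 of the 15 were at 0, and Tubb3 with 49.8 CPM and Syn1 with 63.6 CPM made up most of the sum. With library size alone the neuron sum was 79.5 CPM there, inside the 24.5 to 81.1 CPM of the other 7. The 7 choroid plexus and ependymal markers summed to 2101 CPM against 18.5 to 9374 CPM. Their part in the levels of the 9 was not tested.

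**Figure D4:**
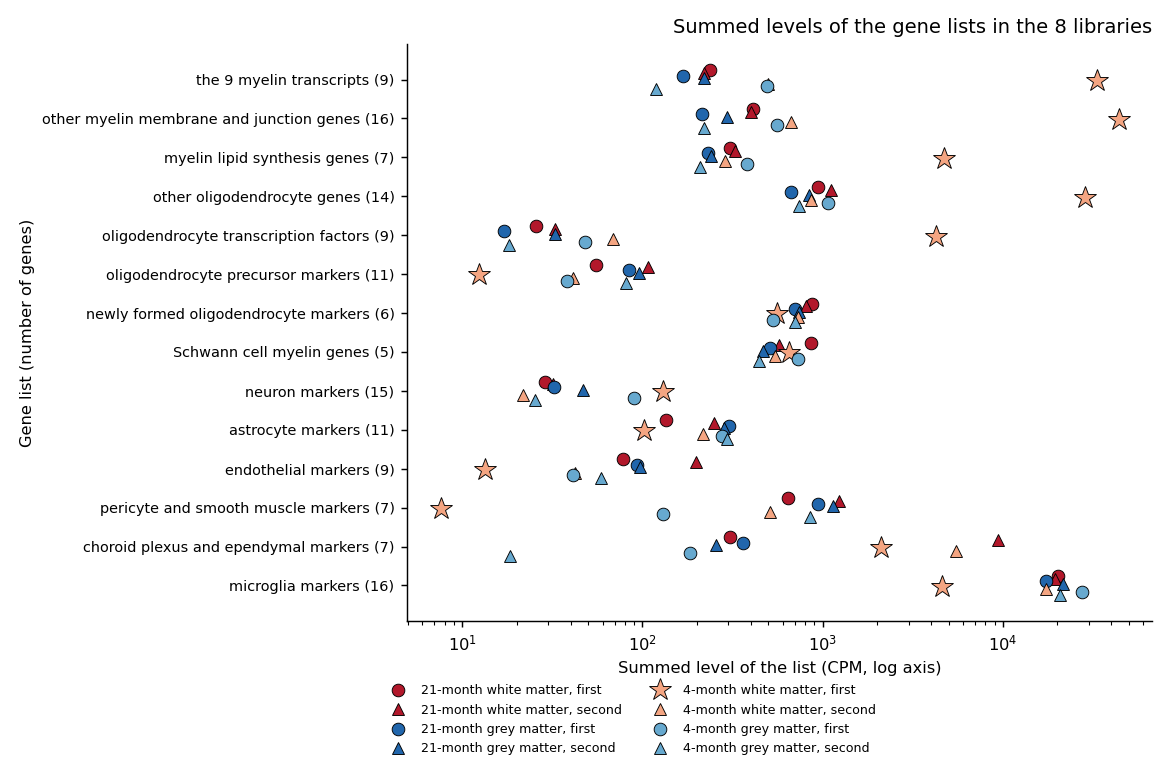
The summed level (CPM, log axis) of the 9 myelin transcripts and of 13 other gene lists, 1 point per library. The first 4-month white matter library lies above the other 7 for the myelin, other oligodendrocyte, transcription factor and neuron lists. It lies below them for microglia, precursor, astrocyte, endothelial and pericyte lists. For the newly formed oligodendrocyte, Schwann cell and choroid plexus lists it lies within their range.

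At 21 months, no difference between white and grey matter passed the test for any of the 9 transcripts. No member was called in the quasi-likelihood fit of edgeR to all 8 libraries, at an adjusted p under 0.05, where 0% of the 16237 genes were called. The median log2 fold change of the 9, white over grey, was 0.39, against 0.017 for all genes, with 7 of the 9 above 0. Leaving out 1 library at a time, that median ran from 0.0077 to 0.90. The values ran from 0.75 ± 1.73 (SE) for Ugt8a to −0.88 ± 1.89 for Cldn11. Both white matter libraries lay above both grey matter libraries for 2 of the 9, Cnp and Ermn, where 20.9% of the genes tested did so, and below them for 0, where 19.5% did so. At an unadjusted p under 0.05, 0 members and 381 genes passed, and DESeq2 called 0 members, beside 0.343% of 13712 genes.

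Without the first 4-month white matter library, the common dispersion of the fit was 0.126, against 0.257 with all 8, and the 21-month values moved little while their errors were smaller. Cnp had a log2 fold change of 0.52 ± 0.45 (SE), Ermn 0.53 ± 0.79, Mbp 0.12 ± 0.55, and Cldn11 −0.88 ± 1.18. No member was called, and 0.109% of 17509 genes were. In a fit of the 21-month libraries alone, 1.58% of 14717 genes were called and 0 of the 9. Of the other lists' genes it called 2. Both were also called by DESeq2 without the first 4-month white matter library, where 1.22% of 13553 genes were called, and in none of the other 16 settings run. Cd9 was higher in white matter by 1.30 ± 0.235 on the log2 scale (adjusted p = 0.0292, edgeR; 0.0116 to 1 over the settings), with 224 and 137 CPM in white matter against 74.7 and 70.6 CPM in grey matter, and microglia express Cd9 too. Vcan, a proteoglycan of the matrix, was lower by −2.13 ± 0.35 (adjusted p = 0.0141, edgeR; 0.00768 to 1 over the settings), with 5.91 and 6.95 CPM in white matter against 21 and 35.4 CPM in grey matter.

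At 4 months, the fitted levels of all 9 transcripts were higher in white than in grey matter, and the size of that difference was set by 1 library. The median log2 fold change was 6.25, against 0.011 for all genes, from 5.16 ± 1.66 (SE) for Mbp to 6.49 ± 2.10 for Cldn11. No member passed the adjustment in the edgeR fit, at an adjusted p of 0.479 for each of the 9, with 0% of genes called. At an unadjusted p under 0.05, 9 members and 1446 genes passed. DESeq2 called 9 members, higher, beside 3.63% of 16183 genes, and edgeR without the low-count filter called 9 beside 3.39% of 32865. DESeq2 also called higher 15 of 16 other membrane and junction genes, 8 of 9 transcription factors, 9 of 14 other oligodendrocyte genes and 4 of 7 lipid synthesis genes, where edgeR called 0 of each list. Both white matter libraries lay above both grey matter libraries for 5 of the 9, Mag, Mobp, Mal, Ermn and Ugt8a, where 13.4% of the genes tested did so, and below them for 0, where 15.5% did so.

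Without the first 4-month white matter library, the median was 0.86 and no member was called by edgeR or DESeq2, with 0% and 0.134% of genes called. That leaves 1 white matter library, which the fit assumes to vary like the other groups. The values then ran from 1.55 ± 0.98 (SE) for Mobp, 1.33 ± 0.88 for Ermn and 1.25 ± 1.17 for Ugt8a to −0.06 ± 1.13 for Mog. In the same fit, 13 of 15 other membrane and junction genes tested were above 0, with a median of 1.07. So were 5 of 6 transcription factors, with 0.62, and 3 of 6 lipid synthesis genes, with 0.39. Of the other oligodendrocyte genes only 5 of 13 were above 0, with a median of −0.19. Without the second library instead, edgeR called all 9, higher, with a median of 7.19, beside 23.6% of 17859 genes. Other cell types moved with the same comparison: the choroid plexus list stood at 2101 and 5513 CPM in 4-month white matter against 184 and 18.5 CPM in grey matter, and the microglia list at 4604 and 17373 CPM against 27571 and 20734 CPM. Their part in the result was not tested.

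In white matter, the fitted levels of all 9 transcripts were lower at 21 than at 4 months, and both 21-month libraries lay below both 4-month libraries for 9 of the 9, where 15.4% of the genes tested did so. They lay above them for 0 of the 9, where 19.8% did so. The median log2 fold change was −6.61, against 0.019 for all genes, from −5.54 ± 1.69 (SE) for Mbp to −8.53 ± 2.33 for Cldn11. No member passed the adjustment in edgeR, at an adjusted p of 0.615 for each, with 0% of genes called. At an unadjusted p under 0.05, 9 members and 1316 genes passed. DESeq2 called 9 members, lower, beside 2.98% of 14330 genes, and edgeR without the low-count filter 9 beside 2.93% of 32865.

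Without the first 4-month white matter library the median was −1.45, all 9 remained below 0, and none was called by edgeR, with 0.00571% of genes called, or by DESeq2, with 0.219% called. The values were −2.88 ± 1.30 (SE) for Cldn11, −1.95 ± 0.99 for Mobp, −1.62 ± 0.88 for Ermn and −1.39 ± 0.65 for Mag, with Mbp at −0.61 ± 0.65. The other oligodendrocyte genes did not share this direction in that fit, with 7 of 13 above 0 and a median of 0.0038. Above 0 were 2 of 15 other membrane and junction genes, with a median of −1.20, and 1 of 6 transcription factors, with −0.82. Lipid synthesis genes had 2 of 6 above 0, with −0.18. The second 4-month white matter library by itself was above both 21-month libraries for each of the 9, with 94.6 CPM for Mobp against 25.3 and 24.1 CPM at 21 months. Without the second library instead, edgeR called all 9, lower, with a median of −7.56, beside 25.1% of genes. Markers of microglia, pericytes and endothelium lay the other way in the same comparison with all 8 libraries, with 0 called by edgeR. All 16 microglia markers were above 0, with a median of 0.89. So were all 7 pericyte and smooth muscle markers, with 1.75, and 8 of 9 endothelial markers, with 2.10. Other cell types were mixed, with 6 of 10 astrocyte, 3 of 5 neuron and 3 of 5 choroid plexus and ependymal markers above 0. Without the first 4-month white matter library 10 of the 16 microglia markers were above 0, with a median of 0.13. So were all 7 pericyte markers, with 0.83, and 7 of 9 endothelial markers, with 1.29. Astrocyte markers then had 2 of 10 above 0, with a median of −0.33. Neuron markers had 3 of 6, with 0.047, and choroid plexus and ependymal markers 1 of 5, with −0.21. Their part in the result was not tested.

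**Figure D5:**
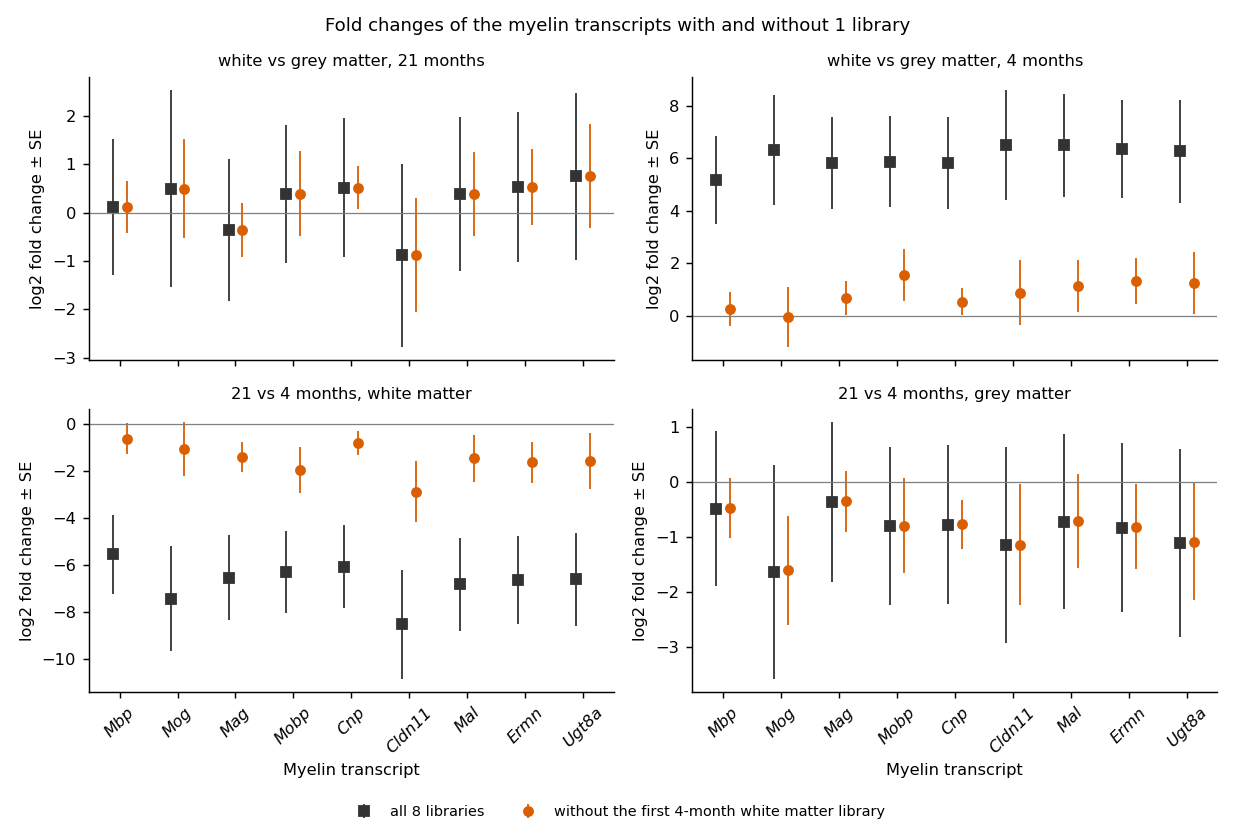
The log2 fold change of each transcript in 4 comparisons, with all 8 libraries and with the 7 that remain once the first of 4-month white matter is left out; points are edgeR estimates and bars are ± 1 SE. Leaving the library out moves the median of the 9 to 0.86 in white over grey matter at 4 months, against 6.25 with all 8, and to −1.45 in 21 over 4 months in white matter, against −6.61 with all 8.

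In grey matter, the libraries of 21 and 4 months overlapped for each of the 9 transcripts. The median log2 fold change, 21 over 4 months, was −0.81, against −0.017 for all genes, with all 9 below 0 and 0 called by edgeR, whose adjusted p was 1 for each; 0% of genes were called. At an unadjusted p under 0.05, 0 members and 119 genes passed, and DESeq2 called 0 members, beside 0% of 32865 genes. Both 21-month libraries lay above both 4-month libraries for 0 of the 9, where 17.2% of the genes tested did so, and below them for 0, where 17.3% did so. The 4-month grey matter libraries were far apart, with summed levels of 493 and 119 CPM, and without the first of them the median was 1.06 and all 9 were above 0.

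The difference between the aging changes, white minus grey matter, was negative for all 9, with a median of −5.79 against −0.0052 for all genes, and 0 called by edgeR, with 0% of genes called. At an unadjusted p under 0.05, 7 members and 455 genes passed. DESeq2 called 1 member, Mag, beside 0.478% of 8151 genes, and edgeR without the filter 9 beside 1.43%. Without the first 4-month white matter library the median was −0.74, Mog was at 0.55 ± 1.53 (SE), and 0 members were called by edgeR, with 0% of genes called, or by DESeq2, with 0.00617% called.

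The genes whose pattern over the libraries was most like the mean of the 9 were ranked by the root mean square difference of centred log2 CPM, over 11497 genes averaging at least 10 counts. Over all 8 libraries the nearest included Il33, an alarmin cytokine, at 0.29, then Tmem88b at 0.30, Gjb1, a connexin of gap junctions, at 0.31, Faim2, Slain1, Stmn4 and Efnb3, with Opalin at 0.38 and Cntn2, an axonal and glial adhesion molecule, at 0.39. Il33 itself had 912 CPM in the first 4-month white matter library against 2.01 to 15.8 CPM in the other 7. Over the 7 libraries without it, the nearest of 11427 genes included Schip1 at 0.28 and Mapt, the tau gene, at 0.30, and 8 of the 10 nearest genes were shared by both rankings. Of the 9 themselves, Ermn lay nearest their mean over 8 libraries, at 0.19, and Mbp, at 0.53, and Cldn11, at 0.61, lay farthest. Both rankings use the same 7 libraries and the same 9 reference transcripts, so their overlap is no independent check. The ranking is a description over few libraries.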

How the data were processed

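RNA of 8 libraries in 4 groups of 2 was analysed, grouped by the sample titles. The authors deposited estimated counts per gene (15.9% to 17.8% of values above 0 were not whole, within 1e-06), rounded here to whole numbers, and a normalised signal, used as log2 of the deposited signal plus 1 in 1 alternative with limma 3.58.1. Per the submitters' processing notes, Partek and DESeq2 were used; their versions and roles, the aligner, the build and any strand setting were not given in the sources used here. Genes were kept with filterByExpr, which left 16237 of 51810, and scaled by TMM. Group means were fitted with edgeR 4.0.16 in R 4.3.3 (robust quasi-likelihood test, all 8 libraries, 5 comparisons), with Benjamini-Hochberg adjustment over all genes tested and a call at 0.05. DESeq2 1.42.0 was an alternative, as were other scalings, no filter, leave-one-out and a replicate block. The smallest exact permutation p of 2 libraries against 2 is 0.333, so none was run; the fit was tested on simulated counts. The text names all 9 members, the 3 genes of highest mean level in each of 13 other lists where they show its level, any called gene of a list, and the 10 genes of most similar pattern, except items that are not reported here; Enpp6, Fyn, Gpr17, Lhfpl3, Pmp2, Dnajc7, Galnt5 and, in the other observations, Apod and Elovl7 were named after their values were seen. Members and lists were chosen with earlier results of these data known. DESeq2 without the first 4-month white matter library was added after the data were seen.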

Additional observations from a re-analysis of the deposited data

How the results depend on the processing

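In each 4-month group the counting intervals of the 2 libraries lay apart for all 9 transcripts. In 21-month white matter they overlapped for all 9, as for Ermn, with 8.57 to 15.3 and 8.58 to 15.5 CPM. In 21-month grey matter they overlapped for Mbp, Mog, Cnp, Ermn and Ugt8a and lay apart for Mag, Mobp, Cldn11 and Mal. Depth limited mainly Mog, Cldn11 and Ugt8a, whose counts were the fewest. No paired block was used in the main fit, since the labels give no pairing and the deviations of same-numbered libraries correlated by over 0.1 in only some of 6 pairs of groups (−0.14 to 0.42 over 16237 genes, highest between white and grey matter at 4 months). With a replicate block 0 members were called in the 5 comparisons, and in grey matter, 21 over 4 months, the median log2 fold change was 0.0695, with Mag at 0.20, Mobp at 0.0695, Cldn11 at 0.20, Mal at 0.0943 and Ugt8a at 0.11.

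Over fits leaving out 1 library each, the medians ran from 0.0077 to 0.90 (white over grey, 21 months), 0.86 to 8.21 (white over grey, 4 months), −7.56 to −1.45 (21 over 4 months, white), −1.60 to 1.06 (grey) and −7.68 to −0.74 (interaction), and members called from 0 to 0, 0 to 9, 0 to 9, 0 to 0 and 0 to 7. Members were called only without the second 4-month white matter library, which leaves 1 library in that group. In that fit a large share of all genes tested was called too, also in the interaction, so these calls were not particular to the 9. White over grey at 21 months, the log2 fold changes ran from −0.0265 to 0.23 for Mbp and −0.14 to 1.47 for Mog. They ran from −0.69 to 0.0741 for Mag, −1.52 to 0.17 for Cldn11 and −0.0748 to 1.03 for Mal. Mog ran from −0.0571 to 8.50 in white over grey at 4 months and from −8.01 to 0.55 in the interaction. In grey matter with age they ran from −1.14 to 0.72 for Mbp, −2.61 to 0.60 for Mog, −0.998 to 0.79 for Mag, −1.60 to 1.13 for Mobp, −1.34 to 0.14 for Cnp, −2.21 to 1.54 for Cldn11, −1.51 to 1.15 for Mal, −1.62 to 1.06 for Ermn and −2 to 1.78 for Ugt8a; all 9 were above 0 without the first 4-month grey matter library.

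Members called numbered 9, 9 and 9 without the low-count filter (white over grey at 4 months, 21 over 4 months in white matter, interaction) and 9, 9 and 1 with DESeq2, against 0 in each with edgeR; the cause was not tested. DESeq2 without the first 4-month white matter library gave medians of 0.88, −1.47 and −0.78, and Mog was at −0.0415 at 4 months and 0.51 in the interaction. The mean summed level was 229 CPM in 21-month white matter with TMM, 245 by library size alone and 273.5 without the 2 most abundant transcripts in the library size; in 21-month grey matter it was 194 with TMM and 249 without those transcripts. Scaling by library size alone moved the median log2 change of all genes to −0.26 (white over grey, 4 months), 0.40 (21 over 4 months, white) and 0.14 (grey). Of 180 alternative values of summaries, 160 kept their direction and side of the threshold, or stayed near the first value where there was no test, and 20 did not.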

Other observations

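A few genes of the lists were high in libraries other than the first 4-month white matter library. Syn1, a synaptic vesicle protein, had 63.6 CPM in that library and 67.5 CPM in the first 4-month grey matter library, against 1.74 to 8.51 CPM in the remaining 6. Apod, a lipocalin of oligodendrocytes and other glia, had 161 CPM in the second 4-month grey matter library, the library with the lowest sum of the 9 myelin transcripts, and 25.9 to 82.4 CPM in the other 6 besides the first 4-month white matter library. Elovl7, a fatty acid elongase, had 74.7 CPM in the second 21-month white matter library and 48.2 CPM in the second 4-month white matter library, against 2.74 to 6.98 CPM in the other libraries besides the first 4-month white matter library, which had 229.7 CPM. Ttr, the transthyretin of the choroid plexus, was highest in the same libraries, with 9006 CPM in the second 21-month and 5270 CPM in the second 4-month white matter library; its part in the Elovl7 values was not tested.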
